A study of Rattus norvegicus with 8 samples.

Results

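The genes described here are the transporters that carry amino acids, sugars, peptides, carboxylates and sulfate across the membranes of kidney tubule cells. The list held 45 genes of the solute carrier families, and a probe set counted when the platform annotation gave it exactly 1 of these symbols. Of the 45 genes, 39 were measured, by 52 probe sets, among 14217 genes and 31042 probe sets in all. The 6 genes without such a probe set were Slc6a19, Slc6a20, Slc6a12, Slc5a9, Slc5a10 and Slc5a8, and they are reported as not measured. Slc6a20 is a synonym of Slc6a20a in the RefSeq gene table, and the platform uses the second name, so its probe sets were not counted as members. They had a standardized difference of -2.20 (limma, adjusted p = 0.137) and of 0.0824 (adjusted p = 0.972).

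Kidney RNA was measured on 8 Affymetrix Rat Genome arrays, with 1 male Wistar rat, 8 weeks old, per array. The control group (n = 4) was fed the AIN-93G diet with 0.3% phosphorus, and the high phosphorus (HP) group (n = 4) the same base diet with 1.2% phosphorus, both for 24 days after all rats had received the control diet for acclimatization. KH2PO4 took the place of corn starch in the HP diet, so that it held more potassium as well. The authors chose the 4 rats of each group as average ones by urine volume and kidney phosphorus, and the spread between arrays is therefore that of selected animals.

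The proximal tubule takes back nearly all of the filtered glucose, amino acids, small peptides and dicarboxylates. Carriers in the brush border bring these solutes into the cell, mostly with sodium or protons, and a different set in the basolateral membrane passes them on to the blood. Other members of the same gene families feed the cell itself, or hold osmolytes such as taurine, betaine and inositol in the medulla.

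The values are logarithms, assumed to be to base 2 (log2), and were made with the distribution free weighted method (DFW), which pulls the values of each probe set closely together. The median SD within groups was 2.22 for all probe sets and 6.19 for the transporter probe sets, in units of 1e-06 of the log scale. All differences and array values below are given in these units, as the deviation from the control mean, and none of them is a fold change. The standardized difference is the HP mean minus the control mean, divided by the pooled SD within groups, and is negative where the HP mean was lower. A gene with several probe sets is counted by the probe set with the highest mean, called here the counted one.

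No transporter passed limma's threshold, an adjusted p under 0.05 over all 31042 probe sets. Of the 52 probe sets 0 were called higher and 0 lower, where limma called 2.95% of all probe sets higher and 1.13% lower. The lowest adjusted p of the transporters was 0.0604, for the dicarboxylate carrier Slc13a3. At an unadjusted p under 0.05 limma had 1 transporter probe set higher and 12 lower, against 9.53% higher and 9.45% lower of all probe sets. Of the 39 genes, 1 was higher and 11 were lower by that measure.

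Most transporters had a lower mean in the HP group, although single differences did not pass. A negative difference was found in 28 of the 39 genes, with a median standardized difference of -0.93, whereas over all 14217 genes the median was -0.07 and 52.4% were negative. Over probe sets 71.2% of the transporters and 57.7% of all were negative. After each array was centred on its median 98.1% of the transporter probe sets were negative, but so were 97.3% of all probe sets, so that this scaling left nearly no probe set positive. The 14 transporter probe sets whose sign it turned belonged to Slc36a1, Slc1a5, Slc7a1, Slc7a11, Slc38a1, Slc38a2, Slc2a2, Slc2a3, Slc16a1, Slc13a1 and Slc15a1. After quantile normalization 70.8% of the 24 transporter probe sets that kept any spread were negative, against 80.4% of all.

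In 9 probe sets all HP arrays lay below all controls, and in 1 they all lay above. Over all probe sets these shares were 5.81% below and 7.09% above. The 9 probe sets belonged to Slc1a1, Slc36a2, Slc7a12, Slc6a13, Slc2a5, Slc5a1, Slc13a2, Slc13a3 and Slc26a1, and the 1 above belonged to Slc2a3. The two-sided exact permutation test gives p = 0.029 for any such separation, the smallest that 4 arrays against 4 allow. For these 10 probe sets it therefore adds nothing to the count.

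**Figure D1:**
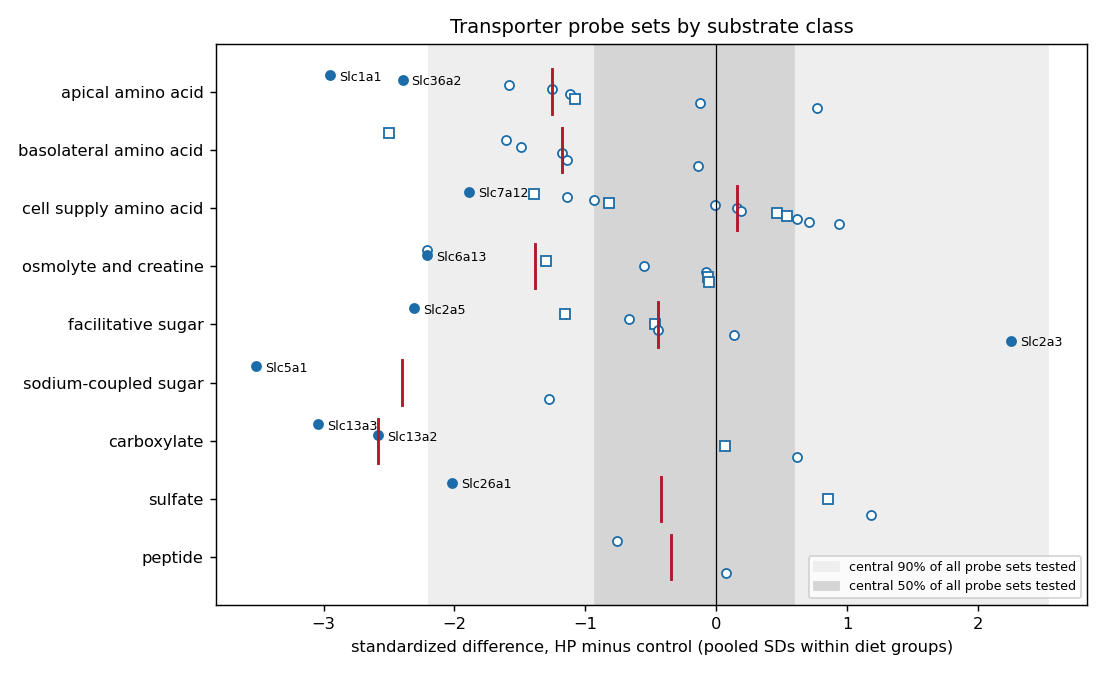
Standardized difference (HP minus control, in pooled SDs within diet groups) of the 52 transporter probe sets, arranged by substrate class. Circles stand for the probe set that counts for a gene and squares for its other probe sets, filled where the arrays of the diets did not overlap, and red bars mark the class medians over genes. Sodium-coupled sugar and carboxylate carriers have the lowest medians, -2.40 and -2.59, and the cell supply class lies near 0 at 0.16. The cell supply median was negative after median centring (-0.91), and so was the median of all probe sets (-0.94).

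Carriers of the apical membrane bring amino acids from the filtrate into the proximal tubule cell. Of 9 listed genes 7 were measured, and 6 of these had a negative difference (median standardized difference -1.25). Slc1a1, the glutamate and aspartate carrier EAAT3 of the brush border, had the smallest p of this class. In its counted probe set the control arrays lay at -4.75, 5.58, 0.73 and -1.56, and the HP arrays at -12.7, -21.3, -17.1 and -8.28. All HP arrays were thus below all control arrays, and HP replicate 4 lay nearest to the controls. The difference was -14.8 (SE 3.35), or -2.95 SDs (95% interval -4.54 to -1.37), with an adjusted p of 0.0653 in limma. The other Slc1a1 probe set also had a lower HP mean, by -193 (SE 119), but its arrays overlapped, since HP replicates 3 and 4 lay among the controls (standardized difference -1.08, adjusted p = 0.454).

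Slc36a2, a proton-coupled carrier of glycine and proline, also showed no overlap. The controls lay at -0.397, 0.705, 0.678 and -0.987 and the HP arrays at -2.21, -3.71, -4.46 and -1.16. HP replicate 4 was close to control replicate 4, and the other HP arrays lay clearly lower. The standardized difference was -2.40 (95% interval -4.07 to -0.73), with an adjusted p of 0.127. The related Slc36a1, a proton-coupled carrier of small neutral amino acids found also on lysosomes, had a standardized difference of 0.77 (adjusted p = 0.739).

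The cystinuria transporter is a pair of proteins, the heavy subunit rBAT and the light subunit b0,+AT. The heavy subunit gene Slc3a1 had a standardized difference of -1.58 (adjusted p = 0.34), while that of the light subunit gene Slc7a9 was -0.13 (adjusted p = 0.954). Slc7a13, a light subunit that pairs with rBAT in the late proximal tubule, had a value of -1.12 (adjusted p = 0.678). Slc6a18, a carrier of glycine and other neutral amino acids, had one of -1.25 (adjusted p = 0.378). The arrays of all these genes overlapped between diets.

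Basolateral carriers pass amino acids from the tubule cell to the blood. All 5 listed genes were measured, all had a negative difference (median standardized difference -1.18) and the arrays of none were separated by diet. Slc3a2, the heavy chain 4F2hc that brings several light chains to the membrane, had the smallest p among the genes as counted here. Its control arrays lay at 4.78, -32.9, 20.8 and 7.24, and its HP arrays at -28.5, -81.9, -43.1 and -14.4. Control replicate 2 lay below 2 of the HP arrays, and HP replicate 2 was the lowest of all. The difference of -42.0 (SE 17.4) gave a standardized difference of -1.60 (95% interval -3.19 to -0.02, adjusted p = 0.259).

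The 2 light chains of this basolateral class that pair with 4F2hc, Slc7a7 and Slc7a8, showed lower HP means as well. Slc7a7, the y+LAT1 chain for cationic amino acids, had a standardized difference of -1.49 (adjusted p = 0.293) that was positive after quantile normalization (0.71), and Slc7a8, the LAT2 chain for neutral amino acids, had one of -1.14 (adjusted p = 0.427). Slc16a10, the uniporter TAT1 for aromatic amino acids, had a value near 0 (-0.14, adjusted p = 0.95). Slc43a2, the uniporter LAT4 for branched-chain amino acids, was read by 2 probe sets. In the counted one the standardized difference was -1.18 (adjusted p = 0.409). In the other one the control arrays lay at 36.2, 13.1, -54.4 and 5.10 and the HP arrays at -39.7, -124, -113 and -108. Control replicate 3 reached below HP replicate 1, and the other HP arrays lay far below all controls. The difference of this probe set was -96.3 (SE 25.6) or -2.50 SDs (adjusted p = 0.1001).

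The carriers that supply the cell with amino acids had no common direction. All 9 listed genes were measured, 5 with a positive and 4 with a negative difference. Their median standardized difference of 0.16 became -0.91 after median centring, against -0.94 over all probe sets. Over the 4 genes that kept any spread in quantile normalization it was -0.11 as deposited and -1.58 after that scaling. Slc7a12, a neutral amino acid carrier known from kidney, had the smallest p of this class. Its control arrays lay at 12.6, 9.55, -5.16 and -17.0, whereas the HP arrays lay at -198, -68.1, -41.9 and -72.7. The groups did not overlap, and HP replicate 1 was far below the rest. The difference was -95.2 (SE 33.5), or -1.89 SDs (95% interval -3.47 to -0.30), at an adjusted p of 0.191. Without HP replicate 1 the standardized difference was -4.07.

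The other 8 genes of this class had standardized differences between -1.14 and 0.94. Slc1a4, the alanine, serine and cysteine exchanger ASCT1, had the lowest value (-1.14, adjusted p = 0.427) and Slc7a11, the cystine and glutamate exchanger xCT, the highest (0.94, adjusted p = 0.521). Slc1a5, the glutamine exchanger ASCT2, had 0.61 (adjusted p = 0.698) and Slc7a5, the LAT1 chain for large neutral amino acids, had -0.93 (adjusted p = 0.526). The glutamine and alanine carriers Slc38a2 (0.19) and Slc38a4 (-0.01) were near 0. All 3 probe sets of Slc7a1, the cationic amino acid carrier CAT1, were between 0.16 and 0.54, but all became negative with median centring (-0.93 to -0.80), and so did the 2 that kept spread in quantile normalization (-2.08 and -0.71). The probe sets of Slc38a1, a sodium-coupled glutamine carrier, went apart, with 0.71 in the counted one and -1.39 and -0.82 in the others.

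The carriers of osmolytes and creatine keep taurine, inositol, GABA, betaine and creatine inside the cell. Of 5 listed genes 4 were measured, and all had a negative difference (median standardized difference -1.38). Slc6a13, the carrier GAT2 that takes up GABA and betaine in the cortex, separated the groups. The control arrays lay at 3.50, -8.21, -2.91 and 7.61 and the HP arrays at -42.1, -30.8, -13.0 and -13.3. HP replicates 1 and 2 were the lowest, and the other HP arrays were close to control replicate 2. The difference of -24.8 (SE 7.47) corresponded to -2.21 SDs (95% interval -3.80 to -0.63) with an adjusted p of 0.135. After quantile normalization, which left only this gene of the class with any spread, the difference was 0.

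Slc6a8, the creatine carrier, had nearly the same standardized difference in its counted probe set. There the control arrays lay at 2.65, -2.20, -0.798 and 0.343 and the HP arrays at -5.79, -5.34, -4.23 and -1.75. HP replicate 4 lay above control replicate 2, and the other HP arrays were below every control. The standardized difference was -2.21 (95% interval -3.83 to -0.59, adjusted p = 0.141), and that of its other probe set was -1.30 (adjusted p = 0.361). The taurine carrier Slc6a6 had values of -0.55 and -0.07 in its probe sets, and the inositol carrier Slc5a3 had -0.08 and -0.06. Slc6a6 and Slc5a3, known for the response to hypertonicity in the medulla, were thus nearest to 0 among the measured genes of this class. Slc6a12, also of this class, was not measured.

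The facilitative glucose carriers, or GLUT proteins, move sugars along their gradient without sodium. All 5 genes were measured, and their differences ran in both directions (median standardized difference -0.44). Slc2a5, the fructose carrier GLUT5, had the smallest p. For this gene the controls lay at -5.75, -7.72, 6.39 and 7.08 and its HP arrays at -38.1, -44.8, -10.5 and -21.0. All HP arrays lay below the controls, HP replicate 3 only by little. The difference was -28.6 (SE 8.26), the standardized difference -2.31 (95% interval -3.89 to -0.72) and the adjusted p 0.123.

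Slc2a3, the high-affinity glucose carrier GLUT3, was the only transporter with all HP arrays above the controls. In its counted probe set the control arrays lay at 0.404, 1.72, 6.26 and -8.38 and the HP arrays at 8.34, 17.7, 18.9 and 8.53. HP replicates 2 and 3 were the highest, and the other HP arrays lay only a little above control replicate 3. The difference of 13.4 (SE 3.95) was 2.26 SDs (95% interval 0.67 to 3.85, adjusted p = 0.129). Median centring, which left 97.3% of all probe sets negative, reversed the sign (-0.78). The mean of this probe set was low, 6.28 in both groups, and among the lowest 25% of all probe sets. With those left out, 0 transporter probe sets had all HP arrays above the controls, against 8.65% of all. The other Slc2a3 probe set had the opposite sign, with -0.47 (adjusted p = 0.796). GLUT3 is known from neurons and leukocytes more than from tubule cells, and the macrophage markers described below were higher on the same HP arrays. Their part in the result was not tested.

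The GLUT proteins of the basolateral membrane of the proximal tubule were close to 0. Slc2a2, or GLUT2, which passes reabsorbed glucose to the blood, had a standardized difference of 0.14 (adjusted p = 0.948), and Slc2a1, or GLUT1, had one of -0.44 (adjusted p = 0.797). Slc2a4, the insulin-responsive GLUT4, had values of -0.67 and -1.15 (adjusted p = 0.676 and 0.432).

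The sodium-coupled sugar carriers, or SGLT proteins, draw glucose from the filtrate against its gradient. Of 4 listed genes 2 were measured, both with a negative difference (median standardized difference -2.40, and -0.99 after median centring). Slc5a1, or SGLT1, takes up the glucose that is left in the late proximal tubule. Its control arrays lay at 0.103, 0.0483, 0.141 and -0.293 and its HP arrays at -1.12, -0.916, -0.526 and -1.30. The HP arrays were all lower, with HP replicate 3 nearest to the controls. The standardized difference of -3.52 (95% interval -6.32 to -0.71) was the lowest of all transporters, but its SD within groups was only 0.275 units and its adjusted p was 0.172.

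Slc5a2, or SGLT2, carries most of the glucose in the early proximal tubule. The controls lay at 5.195, -7.22, 1.26 and 0.765 and its HP arrays at -9.49, -16.4, -6.11 and 0.405. HP replicate 4 lay among the controls and control replicate 2 among the HP arrays. The standardized difference was -1.28 (95% interval -2.87 to 0.31), with an adjusted p of 0.367.

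The carriers of carboxylates take up citrate, succinate and other intermediates of the citric acid cycle, lactate and ketone bodies. Of 4 listed genes 3 were measured, with a median standardized difference of -2.59 that became -1.06 after median centring. Quantile normalization left only Slc16a1 of these genes with any spread (0.69), so that it gave no value for the other two. Both sodium-coupled dicarboxylate carriers showed no overlap between the diets. Slc13a3, the basolateral carrier NaDC3, had the smallest p of all transporters. Its control arrays lay at 2.46, 2.26, -2.16 and -2.56, and its HP arrays at -6.99, -17.4, -12.7 and -8.91. The controls lay close together, and even the highest HP array was well below them. The difference was -11.5 (SE 2.53), or -3.05 SDs (95% interval -4.64 to -1.45), and the adjusted p was 0.0604.

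Slc13a2, the apical carrier NaDC1 that recovers citrate from the filtrate, was also lower on every HP array. The control arrays lay at 18.2, -46.4, 25 and 3.23 and the HP arrays at -168, -120.2, -82.7 and -55.9. Control replicate 2 came near to the highest HP array, and the remaining controls were well apart. The difference was -107 (SE 27.5), or -2.59 SDs (95% interval -4.17 to -1.001), and the adjusted p was 0.0928. Slc16a1, the lactate and pyruvate carrier MCT1, had the widest spread of all transporters. In its counted probe set the controls lay at 542, 258, -109 and -692 and the HP arrays at 984, 77.1, -101 and 286. The arrays of both diets were mixed, and HP replicate 1 was the highest. The standardized difference was 0.62 (adjusted p = 0.697), and it was 0.07 in the other probe set (adjusted p = 0.99).

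The sulfate carriers were both measured, and their differences had opposite signs. Slc26a1, the basolateral sulfate and oxalate exchanger SAT1, was lower on every HP array, with controls at -4.46, 0.320, 9.56 and -5.42 and HP arrays at -15.0, -27.2, -9.87 and -9.37. HP replicate 2 was the lowest, and the remaining HP arrays lay not far below the lowest controls. The difference was -15.4 (SE 5.07), or -2.02 SDs (95% interval -3.61 to -0.43), and the adjusted p was 0.166. Slc13a1, the apical sodium and sulfate carrier NaS1, had controls at 5.64, -1.90, -1.39 and -2.36 and HP arrays at 3.73, 4.12, 1.81 and 3.41 in its counted probe set. Control replicate 1 lay above all HP arrays, and the other controls lay below all of them. The standardized difference was 1.18 (95% interval -0.42 to 2.78, adjusted p = 0.415), and it turned negative after median centring (-0.88). Without control replicate 1 it was 6.11 and passed limma's threshold (adjusted p = 0.0356), the only transporter call made by leaving out an array. The other Slc13a1 probe set had a value of 0.86 (adjusted p = 0.564).

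The peptide carriers take up dipeptides and tripeptides with protons and were both measured. Slc15a2, the high-affinity carrier PEPT2, had controls at -7.97, 4.81, 7.55 and -4.40 and HP arrays at -23.6, -5.42, -0.638 and 0.743. HP replicate 1 was the lowest, and the other HP arrays lay among the controls. The standardized difference was -0.76 (95% interval -2.35 to 0.83, adjusted p = 0.614), and it turned positive after quantile normalization (0.71). Slc15a1, the low-affinity carrier PEPT1, had a value of 0.08 (95% interval -1.51 to 1.66, adjusted p = 0.974).

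**Figure D2:**
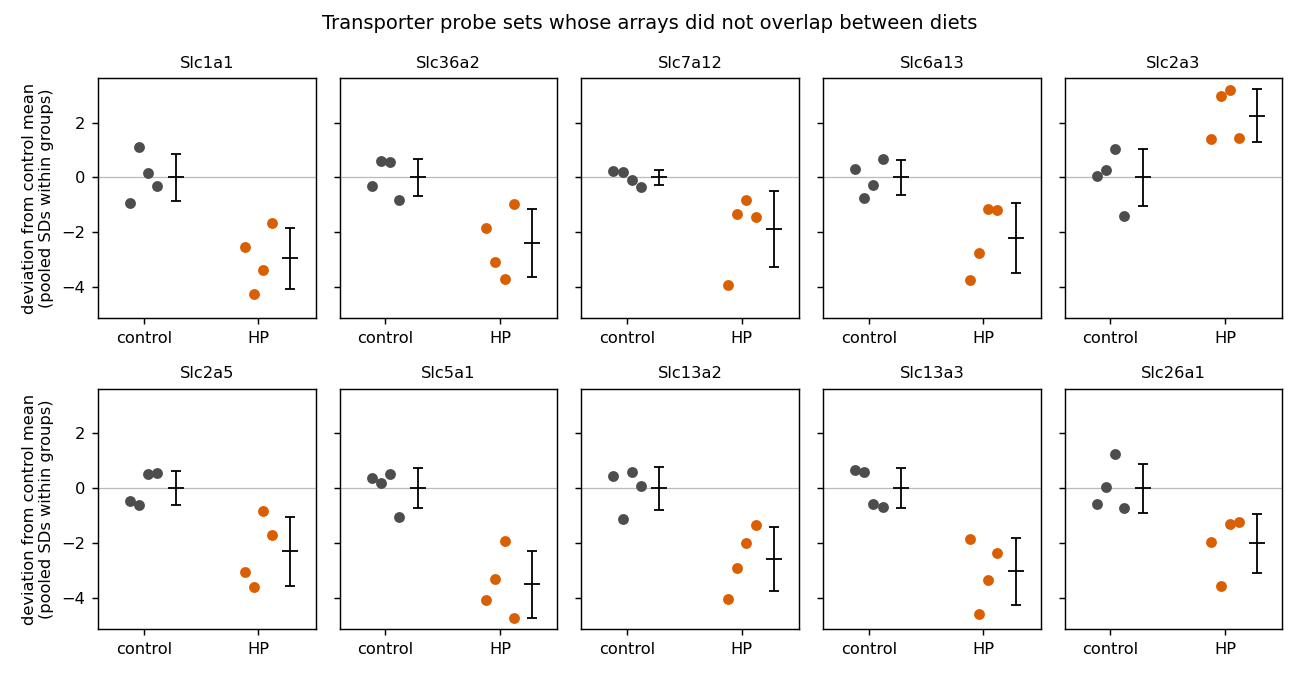
Deviation from the control mean (in pooled SDs within groups) of each array for the 10 transporter probe sets whose arrays did not overlap between the diets, with grey points for control arrays and orange points for HP arrays (n = 4 each) and bars for the mean and SD of each group. The 4 HP arrays lie below the controls in 9 panels and above them for Slc2a3, whose difference turned negative after median centring. That scaling left 97.3% of all probe sets negative.

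The median over the transporters was lower on each of the 4 HP arrays, although 11 of the 39 genes had a positive difference. The median deviation of the 39 genes was between -0.08 and 0.14 SDs on the control arrays. On the HP arrays it was -1.09 SDs for replicate 1, -1.35 for replicate 2, -0.44 for replicate 3 and -0.55 for replicate 4. Over all probe sets the medians of the HP arrays were between -0.33 and -0.12 SDs. Sodium-coupled sugar carriers ranged from -2.997 to -1.45 SDs on the HP arrays and the carboxylate carriers from -2.92 to -1.35, whereas the cell supply carriers ranged from -0.51 to 0.36. The medians of the facilitative sugar and peptide carriers were also above 0 on 1 or more HP arrays, with highest values of 0.33 and 0.73.

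Markers of the tubule cells that hold these transporters had negative median deviations on the HP arrays as well. The labelled tissue was kidney, and its markers were present, with control means of 12.6 for Lrp2 of the proximal tubule and 13.5 for Umod of the thick limb. Of 15 measured proximal tubule markers, 10 had a negative difference (median standardized difference -1.66) and 0 passed limma, with 0 higher and 6 lower at an unadjusted p under 0.05. Over all genes 52.4% were negative, with a median of -0.07. After median centring the median of the proximal tubule markers was -0.97, against -0.94 over all probe sets. The median deviation of these markers was -1.98, -1.71, -1.01 and -0.30 SDs on HP replicates 1 to 4. They include Acmsd, an enzyme of tryptophan breakdown (-2.97, adjusted p = 0.064), Khk, the fructose-phosphorylating ketohexokinase (-2.31, adjusted p = 0.123), Amn, a part of the cubilin receptor (-1.97, adjusted p = 0.188), and the brush border peptidase Anpep (-1.83, adjusted p = 0.205). The 5 with a positive difference were the water channel Aqp1 (1.92), the peptidases Dpep1 (1.10) and Mme (0.33), Gatm of creatine synthesis (0.95) and Pck1 of glucose synthesis (0.36), with adjusted p values of 0.446 to 0.861. In whole kidney RNA, fewer cells of a type and less RNA per cell cannot be told apart.

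Markers of macrophages, fibroblasts and tubular injury rose. Of 15 macrophage and monocyte markers 14 had a positive difference, and 11 passed limma as higher. The medians of the HP arrays were 3.02 to 6.04 SDs against -0.32 to 0.60 on the control arrays. Only Cd163 had a negative difference among these markers. Of 10 fibroblast markers 7 passed limma as higher (HP arrays 5.71 to 6.41 SDs), and of 10 tubular injury markers 6 did (HP arrays 3.57 to 5.34 SDs). All genes of both lists had a positive difference. Without 1 array 4 to 13 macrophage markers, 7 fibroblast markers and 4 to 6 injury markers were called. The macrophage count was 4 without control replicate 1, 2 or 3 or HP replicate 1, 5 without control replicate 4 and 6 without HP replicate 3. After median centring 5 macrophage, 3 fibroblast and 4 injury markers were called higher. Their part in the transporter values was not tested. Of the other marker lists, 0 of 8 thick limb and distal tubule genes, 0 of 7 endothelial, 0 of 3 red cell and 0 of 6 adipocyte genes passed limma. At an unadjusted p under 0.05 these lists had 2 lower, 1 higher and 1 lower, 2 lower, and 3 higher and 1 lower, in the same order. Of 10 collecting duct genes 5 had a positive and 5 a negative difference (median standardized difference -0.39). At an unadjusted p under 0.05 limma had 1 of them higher and 3 lower. The 1 that passed limma was the sodium channel subunit Scnn1b (3.53, adjusted p = 0.0442), and its call was lost in 7 of 8 cases without 1 array. Its sign turned after median centring (-0.86) and in quantile normalization (-1.22).

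**Figure D3:**
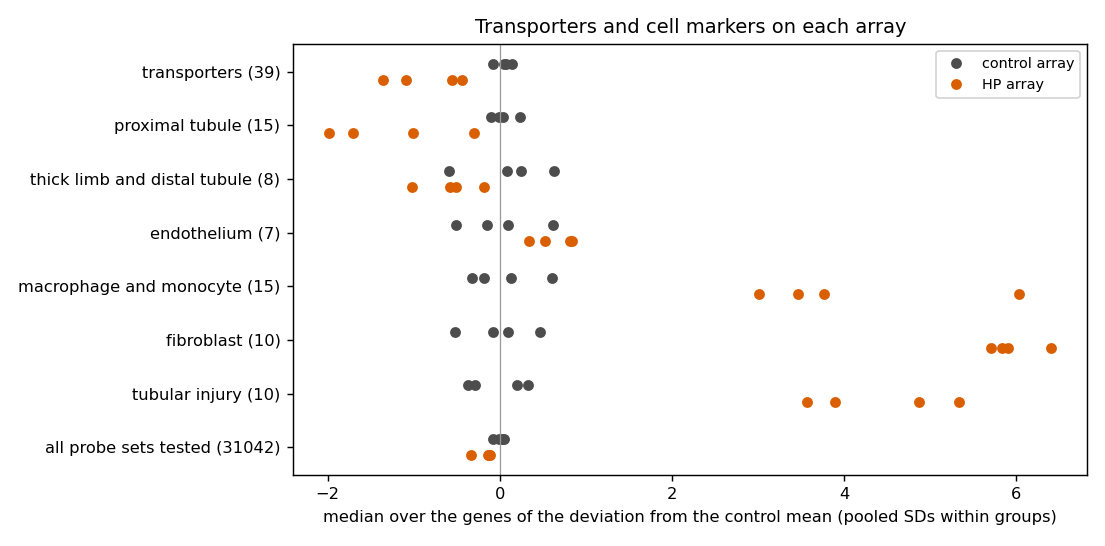
Median over the genes of each list of the deviation from the control mean (in pooled SDs within groups), with 1 point per array, grey for control and orange for HP, and the number of genes in brackets. The HP arrays lie at -1.35 to -0.44 SDs for the transporters, at -1.98 to -0.30 for proximal tubule markers and at 3.02 to 6.04 for macrophage markers.

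Proteins that partner with the transporters or regulate their genes were counted in the same way. Of 16 listed genes 11 were measured, 9 had a negative difference (median standardized difference -0.64) and 0 passed limma, with 1 higher and 2 lower at an unadjusted p under 0.05. Hnf4a, the nuclear factor that drives many proximal tubule genes, was below the controls on every HP array (-2.67, adjusted p = 0.0882). The median deviation of the list was -0.06, 0.01, -0.92 and -1.44 SDs on HP replicates 1 to 4, so that its lowest arrays were not those of the transporters. The scaffold protein Pdzk1 had a value of -1.70 (adjusted p = 0.235), its partner Pdzk1ip1 one of -1.33 (adjusted p = 0.35), and Nfat5, the transcription factor of the osmotic response, one of 2.001 (adjusted p = 0.169). Cltrn, or collectrin, which brings neutral amino acid carriers to the brush border, had a value of 1.07 (adjusted p = 0.47).

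Targets of ATF4, the transcription factor that raises amino acid carriers when amino acids are scarce, ran in both directions. Of 12 genes 4 had a positive and 8 a negative difference, and 1 passed limma as higher and 1 as lower. Atf3, a stress-induced transcription factor, rose by 607 (SE 108) or 3.73 SDs (adjusted p = 0.0339), and Psat1, an enzyme of serine synthesis, fell by 18.8 (SE 3.74) or -3.35 SDs (adjusted p = 0.0455). Without 1 array the Atf3 call was lost in 6 of 8 cases (adjusted p up to 0.0903) and the Psat1 call in 7 (up to 0.119). Asns, the asparagine synthetase, had a value of 2.83 (adjusted p = 0.0725), and Phgdh, the first enzyme of serine synthesis, had one of -2.13 (adjusted p = 0.146). The carriers Slc7a11, Slc38a2 and Slc7a5, which respond to ATF4, had the values given above, between -0.93 and 0.94.

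Of 7 genes of the osmotic response 0 passed limma (2 higher and 1 lower at an unadjusted p under 0.05). The urea carrier Slc14a2 had a standardized difference of 2.38 (adjusted p = 0.115), the heat shock protein Hspb1 one of 2.58 (adjusted p = 0.116) and Sord, the sorbitol dehydrogenase, one of -1.85 (adjusted p = 0.198). The aldose reductase gene Akr1b1, which makes sorbitol, was near to 0 with -0.49 (adjusted p = 0.771).

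Of 55 further carriers of the same families, 41 were measured, and 27 had a negative difference (median standardized difference -0.48). Limma called 0 of them higher and 1 lower. The gene that fell was Slc5a11, the sodium and inositol carrier SMIT2, by 18.6 (SE 3.80) or -3.27 SDs (adjusted p = 0.0486). Its call was lost in 6 of 8 cases without 1 array, with an adjusted p of up to 0.118. Slc16a13, an orphan member of the monocarboxylate carriers, had a value of -2.99 (adjusted p = 0.0629), and the GABA carrier Slc6a11 had one of -2.26 (adjusted p = 0.129). Slc15a3, a lysosomal peptide and histidine carrier known from immune cells, had a value of 2.86 (adjusted p = 0.0706), and the macrophage markers were higher on the same arrays. Their part in that value was not tested.

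Rank products, the test of the study's own methods, gave another answer for some transporters. At an FDR under 0.05 this test called 3.4% of all probe sets higher and 2.3% lower. Of the 52 transporter probe sets it called 1 higher and 6 lower. The 6 were Slc13a2 (FDR 0.00138), Slc7a12 (0.00187), the Slc43a2 probe set with the larger difference (0.0024), the Slc1a1 probe set whose arrays overlapped (0.00583), Slc3a2 (0.0293) and Slc2a5 (0.0395). The 1 higher was Slc16a1 (FDR 0.0393), whose arrays were mixed between the diets. Slc6a13 had an FDR of 0.0521, just outside. Slc13a3, with the smallest p by limma, was not called by rank products. Outside the transporters, rank products called 2 of the 11 partners and regulators (Nfat5 higher and Sgk1, a kinase that acts on many carriers, lower), 2 of the 15 proximal tubule markers (Acmsd and Khk lower) and 3 of the 7 osmotic response genes (Slc14a2 higher, Sord and Akr1b1 lower). They also called 4 of the 12 ATF4 response genes (Atf3, Asns and Cebpb higher, Phgdh lower) and 4 of the 41 further carriers (Slc15a3 higher, Slc16a13, Slc38a7 and Slc16a6 lower). Of the markers, rank products called 13 of 15 macrophage and monocyte, 8 of 10 fibroblast and 8 of 10 tubular injury markers higher. In the remaining marker lists they called 0 of 8 thick limb and distal tubule markers and 1 of 10 collecting duct markers (Slc26a4 lower). They also called 1 of 7 endothelial markers (Vwf lower), 2 of 3 red cell markers (Alas2 and Hbb lower) and 2 of 6 adipocyte markers (Fabp4 and Cfd higher).

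Of the 39 genes 11 had several probe sets, and in 9 of these all probe sets had the same sign. Slc38a1 and Slc2a3 were the exceptions. The remaining 28 genes rested on 1 probe set each.

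**Figure D4:**
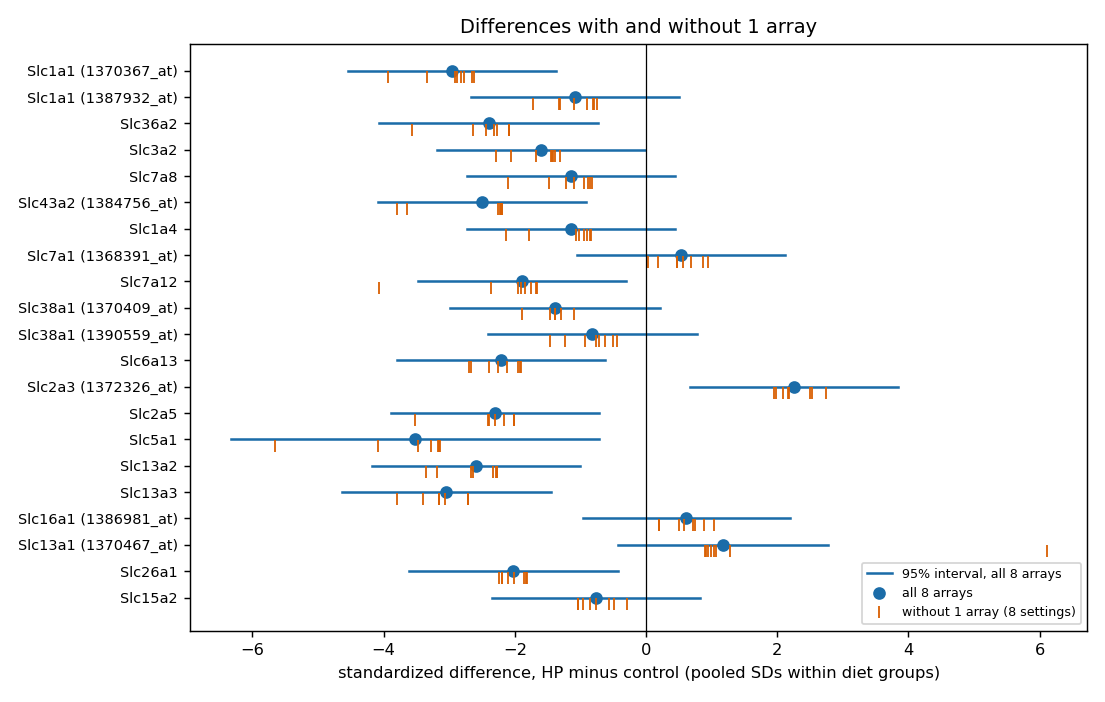
Standardized difference (HP minus control, in pooled SDs within groups) of 21 transporter probe sets, with the 95% interval over all 8 arrays (blue line and point) and the value without each array in turn (orange ticks, 8 per probe set). All ticks of the 10 probe sets without overlap stay on the side of the full value, and the widest move is that of Slc13a1, from 1.18 to 6.11 without control replicate 1. After median centring, which left 97.3% of all probe sets negative, Slc2a3, Slc13a1 and the Slc7a1 probe set shown turned negative.

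Leaving out 1 array kept the sign of the 21 transporter probe sets followed in this way. The lowest adjusted p then was that of Slc13a1 without control replicate 1, followed by Slc1a1 without HP replicate 4 (0.0576). The number of transporter probe sets with every HP array below the controls was between 9 and 14, the highest without control replicate 2. The share of all probe sets below also rose, from 5.81% with all 8 arrays to between 7.47% and 9.49% (8.54% without control replicate 2). The number above was 1 or 2, the higher without control replicate 1. Of all probe sets 8.17% to 8.98% were above, against 7.09% with all 8 arrays.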

How the data were processed

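The authors quantified the CEL files with DFW in R and Bioconductor, which yields 1 logarithmic value per probe set and array. The deposited values were treated as log2, as the base is not given, and were not changed. Platform annotation gave 1 gene to 20826 probe sets, several to 436 and none to 9780. Of 31099 probe sets, 57 Affymetrix controls were left out and the other 31042 entered limma (version 3.58.1, R 4.3.3, HP minus control, default moderation, prior degrees of freedom 0.772) with the Benjamini-Hochberg adjustment over all of them and a threshold of 0.05. Every adjusted p comes from limma. Exact permutation tests were two-sided over 70 arrangements of the arrays. Rank products followed the study's methods, with 16 pairs of arrays and 1000 permutations over all 31099 probe sets. Python 3.11.15 with numpy 2.4.6, pandas 2.3.3 and matplotlib 3.10.9 was used for the rest. The limma and rank product steps were tested on simulated data.

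The members and the gene lists were chosen with earlier results of these data known, and lists are described by counts and medians alone. All members are named, array values are given for the member with the smallest p in each class and for those without overlap, and up to 4 genes with the smallest p are named in each other list except the markers of other cell types. Cltrn, Akr1b1, Cd163, Lrp2, Umod, Slc43a2, Slc6a8, Slc5a2, Slc16a1, Slc13a1 and the proximal tubule markers with a positive difference were given values beyond this rule. Listed genes called by rank products are named with their direction, except the macrophage, fibroblast and tubular injury markers, which are counted. No pair of arrays held identical values. The table gives no detection calls, and precision is limited by the 4 arrays of each diet. Alternatives were median centring, quantile normalization, 1 array left out in turn, other moderation, array weights, a replicate block, removal of the lowest 25% of probe sets, and all probe sets of a gene.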

Additional observations from a re-analysis of the deposited data

Results flagged for a closer look

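In 8 of the 104 groups of 4 arrays (52 probe sets in 2 diets), 1 array stood apart from the others by Dixon's test, and chance alone sets apart about 1 group in 20. The value given is the gap to the nearest array divided by the range of the group. HP replicate 2 stood apart in 5 probe sets, with 0.85 for Slc7a13, 0.853 for Slc36a1, 0.863 for Slc7a7, 0.84 for the counted probe set of Slc43a2 and 0.894 for Slc7a11. It was the lowest HP array in these except for Slc7a11, where it was the highest. Control replicate 2 stood apart for Slc38a2 (0.913), as the highest control. Control replicate 1 stood apart for the counted probe set of Slc13a1 (0.879), again as the highest control, and the Slc13a1 difference passed limma only without it. HP replicate 4 was set apart as the highest HP array for Slc15a1 (0.954).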

How the results depend on the processing

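Of the transporter probe sets, 0 were called higher and 0 lower by limma with all 8 arrays, and the same held with array weights, after median centring, when moderation was omitted or made robust with a trend, and when the lowest 25% of probe sets were dropped. Quantile normalization left 28 of the 52 without any spread within groups, which could not be tested, and 6 of the remaining 24 were called lower, where 5043 of 15784 probe sets in all were called lower: Slc7a8 (-2.25), Slc43a2 (-2.38), Slc1a4 (-2.12), Slc7a1 (-2.08) and Slc38a1 (-11.1 and -2.12). Rank products called 1 higher and 6 lower. Leaving out 1 array gave 0 to 1 call higher and 0 lower. The arrays of the diets were separated in 0 probe sets above and 2 below after median centring, against 1.11% and 0.435% of all probe sets. After quantile normalization it was 0 above and 3 below of the 24 left, against 1.7% and 23.5%. As deposited it was 1 above and 9 below, against 7.09% and 5.81%. With the lowest 25% of probe sets dropped it was 0 above and 9 below, against 8.65% and 6.61%. Without 1 array it was 1 to 2 above and 9 to 14 below, against 8.17% to 8.98% and 7.47% to 9.49%.

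After median centring the class medians were -0.91 for cell supply, -0.99 for sodium-coupled sugar and -1.06 for carboxylate carriers, against -0.94 over all probe sets. After quantile normalization the values were -1.58 for the 4 of 9 cell supply genes with any spread (-0.11 as deposited), 0 for Slc6a13 as the only osmolyte and creatine gene left, 0.69 for Slc16a1 as the only carboxylate gene left (0.62 as deposited), and none for sulfate. These values do not measure a shift of the whole classes. With all probe sets of a gene the medians were -1.26 for carboxylates and 0.86 for sulfate. Without 1 array the median ranged from -3.46 to -2.07 for sodium-coupled sugar and from -0.65 to 2.001 for sulfate. Of all 52 transporter probe sets, 14 turned negative and 0 positive after median centring, and after quantile normalization 4 turned negative and 3 positive. Among the 21 followed across the settings, median centring changed the sign of Slc7a1 (-0.80), Slc2a3 (-0.78) and Slc13a1 (-0.88). Quantile normalization changed that of Slc7a1 (-2.08) and Slc15a2 (0.71). It gave no value for the counted probe sets of Slc1a1, Slc3a2, Slc7a12, Slc2a3, Slc13a2, Slc13a3, Slc13a1 and Slc26a1. Slc2a3 also had no value with the lowest 25% of probe sets left out. Median centring moved all values of an array by the same amount, and the array medians spanned 185 units, against a median SD within groups of 2.22. The cause of the sign changes in quantile normalization was not tested. In 130 further cases a class median moved by less than 1 SD or a count by little or nothing, among them the facilitative sugar median (-1.01 to -0.12 without 1 array, -0.95 after median centring), the peptide median (-0.73 to -0.04, and -0.998 after centring) and the osmolyte median with all probe sets of a gene (-0.55).

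The labels do not say whether arrays of the same replicate number belong together. Same-numbered arrays correlated at 0.0015 to 0.121 in their deviations and other pairs at -0.165 to 0.0842, which does not settle it. With the replicate block, limma called 0 transporters higher and 0 lower (lowest adjusted p = 0.0571), and 254 probe sets higher and 115 lower in all, against 915 and 350 without it. At an unadjusted p under 0.05 limma with the block had 2 transporter probe sets higher and 16 lower, against 1 and 12 without it. The array medians spanned 185 units, while 2 arrays differed by a median of 1.93 to 2.65 units per probe set.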
